A study of Mus musculus with 4 samples.

Results

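The autophagy and lysosome genes described here are 34 genes, chosen by a list of symbols, and all 34 were found among the 32285 gene symbols of the data. They comprise 4 genes of the initiation complex, 3 of the class III PI3-kinase complex, 3 PI3P effectors and lipid transfer proteins, 6 genes of the conjugation machinery, 5 ATG8 proteins, 5 cargo receptors, 6 lysosomal enzymes and membrane proteins and 2 transcription factors.

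The study measured RNA in single nuclei of mouse liver after a fast of 16 to 24 h (2 libraries, fasted 1 and fasted 2) and in fed controls (2 libraries, fed 1 and fed 2). Each library was a separate preparation of nuclei from 50 mg of frozen liver pooled from 8 mice, and whether the preparations of a group share mice is not stated in the labels. P-values therefore measure the spread between preparations, which may be technical. The sources used here name no strain, sex, age or time of day.

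Autophagy encloses cytoplasm, aggregates or organelles in a membrane sac and delivers them to the lysosome, where acid hydrolases break them down. ULK1 kinase starts the process under the control of mTORC1 and AMPK, a lipid kinase marks the new membrane, and a conjugation system attaches ATG8 proteins to it, to which cargo receptors bind. In liver, autophagy is known to supply amino acids and lipids during a fast. TFEB and TFE3 are kept out of the nucleus by mTORC1 in fed cells and drive many of these genes through a motif called the CLEAR element.

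The core of that element, the E-box CACGTG, was searched on both strands (it reads the same on each) in the RefSeq promoter windows of 300 bases, 250 before to 50 after the start, on GRCm38.p6. Of the members, 26 matched the table, with 30 windows. CACGTG was in 8 of these 30 windows (26.7%, those of Lamp1, Ctsd, Ctsl, Atg7, Atg3, Atg5, Atg14 and Bnip3) and in 7.15% of all 32851 windows. The longer TCACGTGA, which contains the core, was in 2 of the 30 (Atg3 and Ctsd) and in 0.974% of all, and the full CLEAR consensus, which contains both, was in 0 of the 30 and in 0.326% of all. A match is a description of letters and not a shown site. The windows of Lamp1 (chr8:13158911-13159210, plus strand), which holds the core 4 times, of Ctsd (chr7:142387778-142388077, minus strand), which holds it 2 times, and of Ctsl (chr13:64370471-64370770, minus strand) and Atg7 (chr6:114670846-114671145, plus strand), which hold it 1 time each, are shown because these genes carry results below. By GENCODE vM21, the Atg7 window lies wholly inside the gene (chr6:114643097-114860614, plus strand), downstream of its annotated 5' end. So do the windows of Ctsl (gene at chr13:64359337-64370890, minus strand) and Atg14 (gene at chr14:47540893-47570649, minus strand). Capitals mark the core.
Lamp1: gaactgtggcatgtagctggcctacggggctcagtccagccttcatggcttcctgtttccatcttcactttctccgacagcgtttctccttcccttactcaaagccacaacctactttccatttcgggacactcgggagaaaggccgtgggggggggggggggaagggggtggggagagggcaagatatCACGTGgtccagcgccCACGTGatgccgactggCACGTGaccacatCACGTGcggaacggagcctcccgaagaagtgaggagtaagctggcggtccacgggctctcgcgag
Ctsd: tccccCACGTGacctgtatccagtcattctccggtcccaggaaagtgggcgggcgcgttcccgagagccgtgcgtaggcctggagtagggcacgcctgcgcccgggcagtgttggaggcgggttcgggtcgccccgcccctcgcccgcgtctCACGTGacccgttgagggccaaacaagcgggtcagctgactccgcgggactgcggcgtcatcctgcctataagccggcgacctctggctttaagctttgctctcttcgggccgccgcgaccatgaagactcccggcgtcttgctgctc
Ctsl: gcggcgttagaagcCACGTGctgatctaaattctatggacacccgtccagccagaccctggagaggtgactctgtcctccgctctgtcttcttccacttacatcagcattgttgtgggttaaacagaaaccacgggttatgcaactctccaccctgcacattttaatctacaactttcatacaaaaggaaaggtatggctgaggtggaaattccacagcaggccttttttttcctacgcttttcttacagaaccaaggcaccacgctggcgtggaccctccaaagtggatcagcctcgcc
Atg7: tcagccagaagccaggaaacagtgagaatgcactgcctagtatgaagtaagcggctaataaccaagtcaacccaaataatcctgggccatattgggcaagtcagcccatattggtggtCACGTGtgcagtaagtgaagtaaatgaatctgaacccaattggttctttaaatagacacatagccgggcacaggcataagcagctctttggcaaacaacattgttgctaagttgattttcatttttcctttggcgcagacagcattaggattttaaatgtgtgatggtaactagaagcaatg

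After filtering, 29724 nuclei formed 20 clusters. Of these, 18766 nuclei in 10 clusters were hepatocyte-like, and 5402 endothelial-like, 1960 Kupffer cell- or macrophage-like, 1755 stellate-like, 521 cholangiocyte-like and 429 B or plasma cell-like nuclei were also compared; the names are used without the suffix. Over 90% of the nuclei came from 1 library in 8 of the 10 hepatocyte clusters, 1 of which held 1746 fed 1 nuclei led by acute-phase genes. Summed hepatocyte counts of unique molecular identifiers (UMIs, 1 per captured transcript) were 20972979, 19242623, 16809365 and 6660477 in fasted 1, fasted 2, fed 1 and fed 2, so fed 2 was the shallowest. The same order is used for every set of 4 values below. Gm42418, which collects ribosomal RNA reads, took 0.213% to 0.893% of hepatocyte UMIs in the other libraries and 4.22% in fed 2. Levels are given as CPM, that is, UMIs scaled to the library's total for a type, and since the counting may favour long genes, levels are not compared between genes.

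In fasted hepatocytes, lysosomal cathepsin L (Ctsl) and the ATG8 genes Map1lc3b, Gabarapl1 and Map1lc3a lay above both fed libraries. Their log2 fold changes between the groups were about 0.82 to 1.14. The initiation gene Atg13 lay below both fed libraries in both fasted ones. None of the 34 members passed edgeR's quasi-likelihood test with Benjamini-Hochberg adjustment at 0.05 over all 13994 genes tested, where 0.00715% of genes passed. DESeq2 called none of the 34 either, against 1.29% of all genes. An unadjusted p under 0.05 was reached in edgeR by 2 members, Ctsl and Map1lc3b, against 6.80% of all genes. The median log2 fold change (fasted minus fed) was 0.14 over the members and -0.01 over all genes. Of the 34 members, 23 were above 0, or 67.6%, against 49.5% of all genes. The members were chosen with earlier results of these data known, so this comparison with all genes is no independent test. Leaving out 1 library at a time moved the members' median between 0.04 (without fasted 2) and 0.23 (without fed 2). Both fasted libraries were above both fed libraries in 10 members (20.6% of all genes) and below both in 4 (15.7% of all genes). The only gene that passed edgeR was Cyp4a14, a fatty acid hydroxylase gene known to respond to fasting, at 913, 889, 4.64 and 7.06 CPM, which matched the feeding labels.

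**Figure D1:**
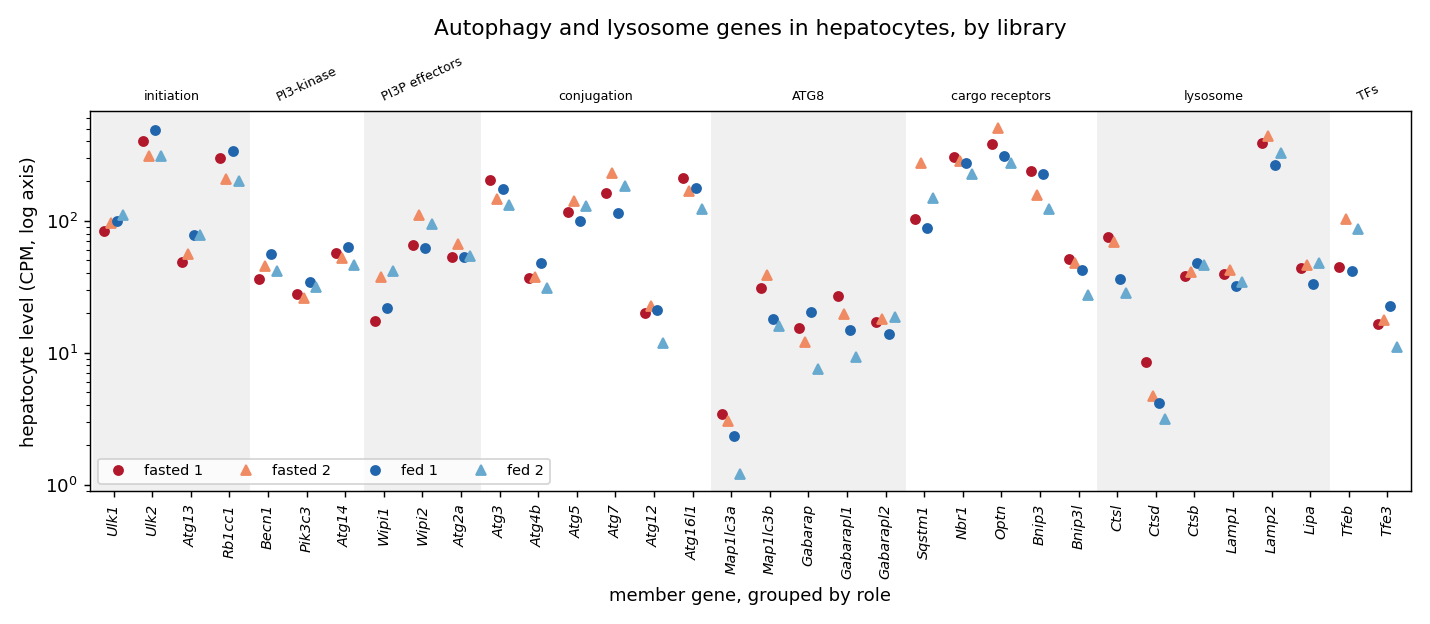
Level of each of the 34 members in hepatocytes of each library, in CPM on a log axis, with members grouped by role; circles are replicate 1 and triangles replicate 2. The fasted points of Ctsl, Map1lc3b and Gabarapl1 lie above both fed points, while Sqstm1, Tfeb and Wipi1 separate by replicate number.

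Positions of named genes are from GENCODE vM21 on GRCm38. The initiation complex phosphorylates and recruits the later factors. All 4 of its members had fold changes below 0, with a median of -0.22, where 49.5% of all genes were above 0. Atg13, the adaptor that links the kinase to its partners (chr2:91674618-91710576, minus strand), was at 48.8 and 56.0 CPM when fasted and 78.3 and 78.2 CPM when fed hepatocytes. Both fed libraries were nearly equal and above both fasted ones, a log2 fold change of -0.61 (SE 0.31, n = 2 and 2; edgeR adjusted p = 0.774). Ulk1, the kinase that starts autophagy, was at 83.9 and 96.8 CPM compared with 99.3 and 110 CPM. The fasted values of Ulk1 were lower without overlap, but the difference of -0.25 (SE 0.31) was smaller than its standard error. Ulk2, its paralog, had a log2 fold change of -0.19, and Rb1cc1, the large scaffold of the complex also called FIP200, one of -0.11, both with overlapping groups. Neither kept its sign without fed 1, where Ulk2 was at 0.092 and Rb1cc1 at 0.24.

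The class III PI3-kinase complex makes the lipid PI3P on the new membrane. Its catalytic subunit Pik3c3 was at 27.7 and 26.0 CPM when fasted and 34.3 and 31.7 CPM when fed hepatocytes. The fasted values were below both fed ones, with a log2 fold change of -0.33 (SE 0.32; edgeR adjusted p = 0.941). Becn1, the regulatory subunit Beclin 1, had -0.29 and Atg14, which targets the complex to sites of autophagy, -0.03, and their groups overlapped.

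Among proteins that read PI3P, Wipi1 was at 17.3 and 37.5 CPM when fasted and 21.9 and 41.6 CPM when fed hepatocytes. In both groups replicate 2 was far above replicate 1, and the groups overlapped (log2 fold change -0.25, SE 0.55). Wipi2, which recruits the conjugation machinery, and Atg2a, which transfers lipid to the growing membrane, were each at 0.13.

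The conjugation machinery attaches ATG8 proteins to lipid, and 5 of its 6 members had fold changes above 0. Atg7, the activating enzyme of the system, was at 162 and 232 CPM when fasted and 114 and 183 CPM when fed hepatocytes. The groups overlapped, and the log2 fold change of 0.36 (SE 0.41; edgeR adjusted p = 0.970) was smaller than its standard error. The ubiquitin-like Atg12 had 0.33, Atg16l1, which sets the site of conjugation, 0.30, the transfer enzyme Atg3 0.16 and Atg5, the partner of Atg12, 0.12. The protease Atg4b, which trims ATG8 proteins, was at -0.10. None of these 6 separated the groups.

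The ATG8 proteins coat the membrane and bind cargo receptors, and 3 of the 5 separated the groups, all higher in fasted, as 20.6% of all genes were. Map1lc3b (chr8:121590361-121598760, plus strand), which encodes LC3B, the protein most used to mark autophagosomes, was at 31.1 and 39.0 CPM when fasted and 18.1 and 16.1 CPM when fed hepatocytes. Both fasted values were well above both fed values, a log2 fold change of 1.01 (SE 0.35; edgeR adjusted p = 0.653). Gabarapl1 was at 27.0 and 19.7 CPM compared with 14.9 and 9.31 CPM, again with no overlap, or 0.92 (SE 0.40; edgeR adjusted p = 0.749).

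Map1lc3a, which encodes LC3A, was the least counted member, at 3.43 and 3.01 CPM compared with 2.32 and 1.20 CPM, the last from 8 UMIs. Its groups did not overlap, and its log2 fold change was 0.82 (SE 0.60; edgeR adjusted p = 0.888). Gabarapl2 at 0.07 and Gabarap at -0.03 were near 0, and their groups overlapped. Members of this family have similar sequences, and the sources used here do not say how reads shared between such genes were counted.

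All 5 cargo receptors had fold changes above 0, with a median of 0.47. Optn, which encodes optineurin, a receptor for damaged mitochondria and bacteria, was at 381 and 503 CPM when fasted and 307 and 276 CPM when fed hepatocytes. Fasted values were above both fed values, a log2 fold change of 0.57 (SE 0.32; edgeR adjusted p = 0.809). Sqstm1, which encodes p62, the receptor for ubiquitin-tagged cargo, was at 104 and 272 CPM compared with 88.2 and 148 CPM. Its 2 highest values were those of the replicate 2 libraries, so the groups overlapped despite a log2 fold change of 0.64 (SE 0.56; edgeR adjusted p = 0.923), which became -0.27 without fasted 2.

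The mitochondrial receptor Bnip3l, also called NIX, had a log2 fold change of 0.47 and Nbr1, a receptor for aggregates and peroxisomes, 0.20, both without overlap. The related mitochondrial receptor Bnip3 was at 0.15 with overlap.

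Of the 6 lysosomal genes, 4 were higher in fasted without overlap (20.6% of all genes) and 1 was lower (15.7% of all genes). Ctsl (chr13:64359337-64370890, minus strand), a cysteine protease of the lysosome, was at 75.8 and 69.1 CPM when fasted and 36.1 and 28.2 CPM when fed hepatocytes. The fasted values were close to each other and far above both fed values, and the log2 fold change was 1.14 (SE 0.31; edgeR adjusted p = 0.551), the largest among the 34. Over 14 other settings, leaving out each library among them, it ran from 1.02 to 1.26, with adjusted p-values of edgeR or, in 1 setting, DESeq2 from 0.0561 to 1.00.

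Ctsd, the aspartic protease cathepsin D, was at 8.44 and 4.73 CPM compared with 4.16 and 3.15 CPM. The lower fasted value was close to the higher fed one, and the log2 fold change was 0.80 (SE 0.53; edgeR adjusted p = 0.861). Lamp2, a membrane glycoprotein needed for fusion of autophagosomes with lysosomes, was at 389 and 437 CPM compared with 267 and 325 CPM, or 0.44 (SE 0.32; edgeR adjusted p = 0.885), without overlap.

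Lamp1, the related membrane glycoprotein, had 0.27 and did not overlap either, and the acid lipase Lipa had 0.11 with overlap. The protease Ctsb went the other way, at 37.9 and 40.6 CPM when fasted and 47.6 and 46.4 CPM when fed hepatocytes. Both pairs were tight and apart, with a log2 fold change of -0.29 (SE 0.31; edgeR adjusted p = 0.961).

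The transcription factor Tfeb was at 44.9 and 103 CPM when fasted and 41.8 and 86.8 CPM when fed hepatocytes. Replicate 2 was far above replicate 1 in both groups, and the log2 fold change was 0.16 (SE 0.57; edgeR adjusted p = 0.998). Its relative Tfe3 was at 0.01. In 9 members, Sqstm1, Tfeb, Wipi1, Wipi2, Atg2a, Atg5, Atg7, Gabarapl2 and Lipa, both replicate 2 libraries were above both replicate 1 libraries, and in 7 they were below both, against 19.9% and 29.5% of all genes. The labels give no batch for the replicate numbers.

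**Figure D2:**
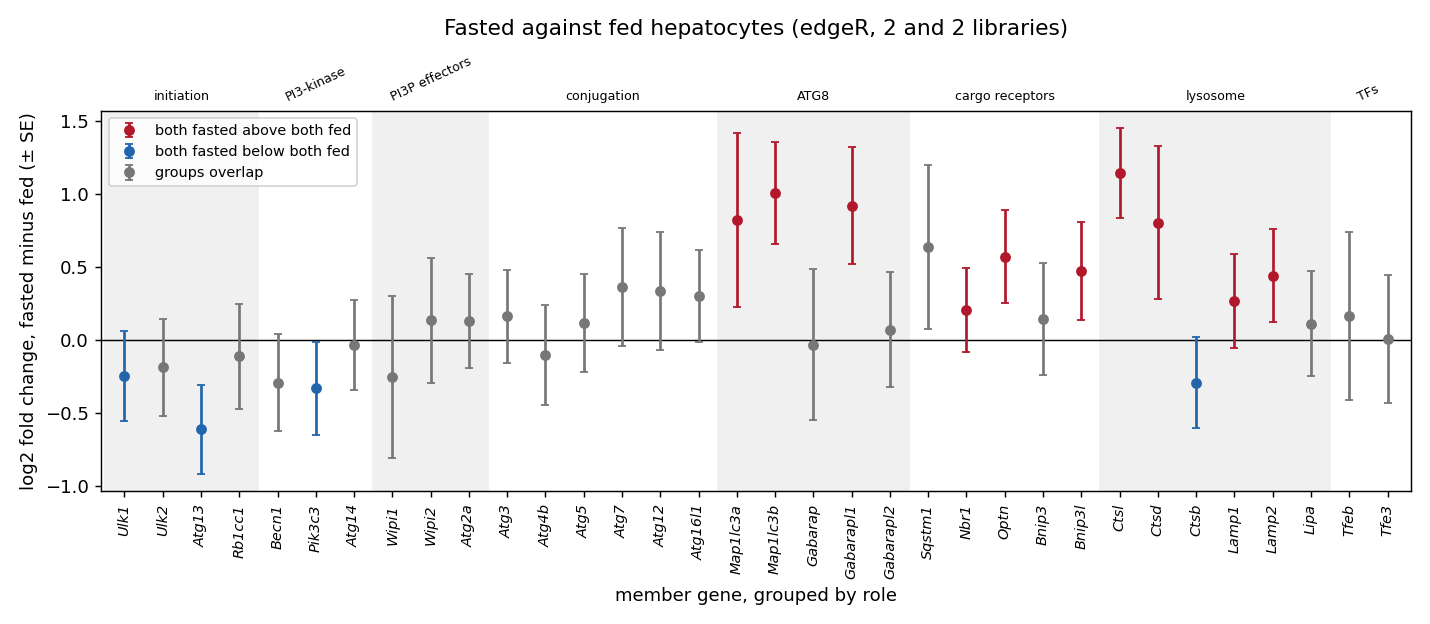
Log2 fold change in hepatocytes, fasted minus fed, with its standard error (edgeR, 2 libraries per group), for each member in role order; red marks members with both fasted libraries above both fed, blue below both, grey overlapping groups. The 4 initiation genes lie below 0, all 5 cargo receptors above 0, and Ctsl is highest at 1.14.

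Markers of other cell types in hepatocyte sums differed between libraries as well. The 8 Kupffer cell or macrophage markers summed to 171, 298, 168 and 179 CPM and the 10 endothelial ones to 29.8, 5.14, 21.8 and 51.6 CPM, with none of these markers at 0 in every library. Of these, 1 of 6 tested Kupffer markers and 1 of 9 tested endothelial markers had a fold change above 0, and both sums overlapped between the groups. Of the 10 lists of other cell types, 3 had sums that did not overlap. The 8 stellate markers summed to less in fasted, at 24.1, 13.5, 48.1 and 64.6 CPM, with 1 of 6 tested above 0. The 10 T or NK cell markers summed to more in fasted, at 27.0, 17.8, 9.82 and 17.0 CPM, with 2 of 5 tested above 0, as did the 6 fibroblast or smooth muscle markers, at 2.38, 1.30, 1.13 and 0.901 CPM. Their part in the members' values was not tested. The SE of a member ran from 0.29 (Nbr1) to 0.60 (Map1lc3a).

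The wider pathway, on lists of other genes, held no edgeR call in hepatocytes. Of 50 other autophagy genes, 21 had fold changes above 0 (median -0.11), of 17 subunits of the V-ATPase, the lysosomal proton pump, 8 (median -0.05), of 45 tested other lysosomal proteins 19 (median -0.13) and of 33 tested genes of mTORC1 and AMPK nutrient sensing 17 (median 0.00). DESeq2 called 1 gene of these lists. This was Ddit4, which encodes REDD1, an inhibitor of mTORC1, at 4.05 and 9.98 CPM when fasted and 1.13 and 0.300 CPM when fed hepatocytes, with a log2 fold change of 3.17 (SE 0.82; edgeR adjusted p = 0.551, DESeq2 adjusted p = 0.0139). Its fed 2 value rested on few UMIs.

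Next by p among other autophagy genes, Retreg1, a receptor for degrading endoplasmic reticulum, was at 174 and 185 CPM compared with 89.8 and 74.6 CPM (1.10, SE 0.30), and Trp53inp1 at 277 and 164 CPM compared with 120 and 84.5 CPM (1.08, SE 0.36), both without overlap. Ncoa4, the ferritin receptor, had 0.54 and Vps11 -0.49, also without overlap. Atg4a (-0.96), at 20.1, 28.1, 23.1 and 67.1 CPM, and Wdr45b (-0.52), at 106, 110, 202 and 106 CPM, overlapped. In the lysosomal list Ctsh had 0.91, Fuca1 0.71 and Psap 0.65, each without overlap. Dpp7 (-1.76), at 1.14, 1.46, 7.32 and 1.35 CPM, and Tpp1 (-0.70) overlapped.

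Of the 17 V-ATPase subunits, 4 were lower in fasted without overlap (15.7% of all genes), among them Atp6v1g1 (-0.73), Atp6ap2 (-0.62) and Atp6v0d1 (-0.46). Atp6v0e (0.24) was higher without overlap, and Atp6v0b (0.32) and Atp6v1b2 (0.24) overlapped. Among nutrient sensors, Sesn2 had 0.84 and Akt1s1 0.61. The AMPK subunits Prkaa2 and Prkab2 had -0.67 and -1.27, both without overlap. Fnip2 had -0.67 with overlap, at 201, 224, 168 and 480 CPM. None of these passed edgeR.

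Along the lobule, 5 of the 34 members differed between hepatocytes near the central vein and near the portal tract. Ulk1 and Tfeb were higher on the periportal side, and Atg7, Lamp2 and Sqstm1 on the pericentral side, each in 4 of 4 libraries. Nuclei were placed by a score of 9 pericentral and 11 periportal landmark genes, none of them a member, and cut into 3 equal bins per library. The lowest and highest bins were compared with library as a block over 12273 genes. The 3 members higher pericentral compare with 8.09% of all genes and the 2 higher periportal with 8.16%, so the share of members called, 5 of 34, was close to that of all genes. The median difference was -0.01 for the members and for all genes.

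Ulk1 (chr5:110784488-110810097, minus strand) stood at 102, 113, 118 and 150 CPM in periportal and at 68.9, 79.5, 76.7 and 69.3 CPM in pericentral hepatocytes. Every periportal value was above every pericentral one, and the middle bin lay between in 4 of 4 libraries. The log2 difference, pericentral minus periportal, was -0.64 (SE 0.09; edgeR adjusted p = 3.31e-05). It passed under all 11 other settings run.

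Tfeb was at 52.8, 107, 49.5 and 106 CPM periportal and at 39.2, 96.3, 37.5 and 77.3 CPM pericentral, or -0.33 (SE 0.08; edgeR adjusted p = 0.00791). The middle bin lay between in only 2 of 4 libraries, and without fasted 1 the edgeR adjusted p was 0.0553.

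Atg7 was at 141, 195, 109 and 177 CPM periportal and at 184, 263, 131 and 214 CPM pericentral, or 0.35 (SE 0.06; edgeR adjusted p = 4.72e-04). Lamp2 was at 369, 393, 243 and 265 CPM periportal and at 414, 471, 299 and 375 CPM pericentral, or 0.29 (SE 0.06; edgeR adjusted p = 0.00278). Both rose toward the central vein in each library, with the middle bin between in 3 and 4 of 4.

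Sqstm1 was at 96.7, 242, 85.1 and 125 CPM periportal and at 113, 295, 92.7 and 171 CPM pericentral, or 0.26 (SE 0.06; edgeR adjusted p = 0.00726), with the middle bin between in 4 of 4 libraries. Without fasted 2 its edgeR adjusted p was 0.0798. In the fed libraries alone Ulk1, Tfeb and Lamp2 still passed, while Atg7 (0.27, edgeR adjusted p = 0.183) and Sqstm1 (0.27, edgeR adjusted p = 0.206) did not.

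**Figure D3:**
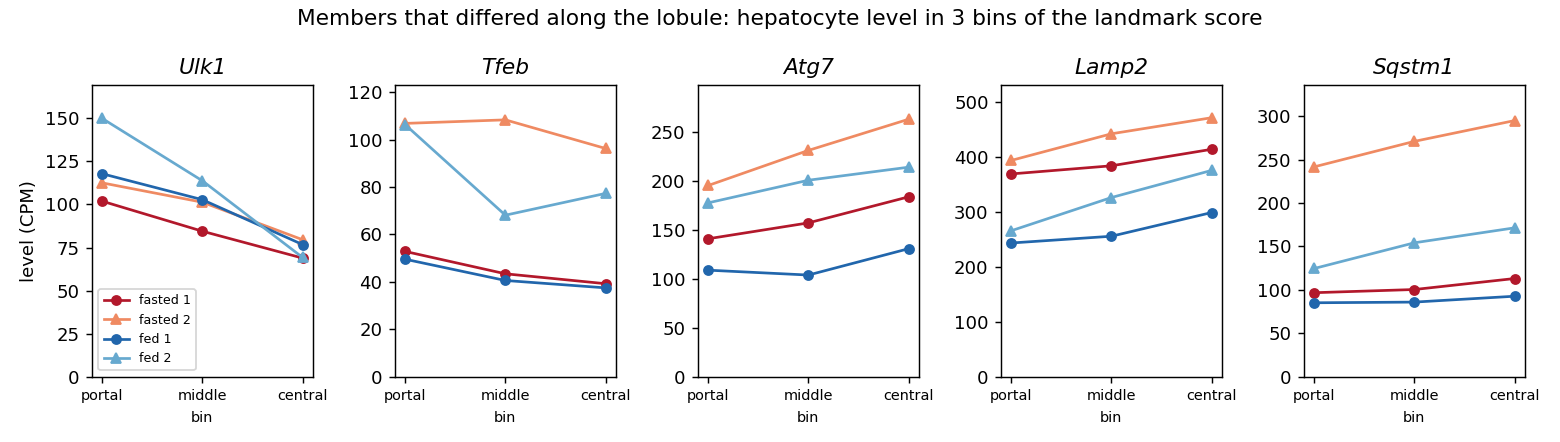
Hepatocyte level in CPM (from 0) of the 5 members that passed between zones, in the periportal, middle and pericentral bins of each library; lines join the bins of 1 library. Ulk1 falls from 102 to 150 CPM at the portal side to 68.9 to 79.5 CPM at the central side in all 4 libraries, and replicate 2 libraries lie above replicate 1 for Tfeb, Atg7 and Sqstm1.

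The largest difference toward the central vein was that of Gabarapl1, at 0.43 (SE 0.15), which did not pass (edgeR adjusted p = 0.0625). In the fasted libraries alone it was 0.42 (edgeR adjusted p = 0.0433), and in the fed ones alone 0.48 (edgeR adjusted p = 0.535). Gabarapl1 was at 27.0, 14.0, 12.9 and 2.82 CPM periportal and at 30.9, 23.7, 14.8 and 9.41 CPM pericentral, higher in 4 of 4 libraries. Lipa had 0.28 (SE 0.11; edgeR adjusted p = 0.0925), also in 4 of 4. Toward the portal side the third largest was Atg12, at 19.9, 22.7, 25.5 and 14.1 CPM periportal and 20.5, 20.9, 16.6 and 6.05 CPM pericentral, or -0.27 (SE 0.15; edgeR adjusted p = 0.273), lower pericentral in 3 of 4.

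The members that separated fasted from fed were not among those that passed by zone, apart from Ulk1 and Lamp2. Ctsl had a zone difference of 0.04 (SE 0.09), Map1lc3b of 0.29 (SE 0.14; edgeR adjusted p = 0.205) and Atg13 of -0.03 (SE 0.09). A test of whether the zone difference depended on feeding called none of the 34 members (0.236% of all genes). The unadjusted p was under 0.05 for 2 of the 34, against 6.67% of all genes. These were Atg12, with a difference of differences of 0.65 (SE 0.28), and Gabarapl2, with -0.63 (SE 0.29). For Ulk1 it was 0.24 (SE 0.15), with -0.53 in the fasted libraries alone and -0.80 in the fed ones alone.

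**Figure D4:**
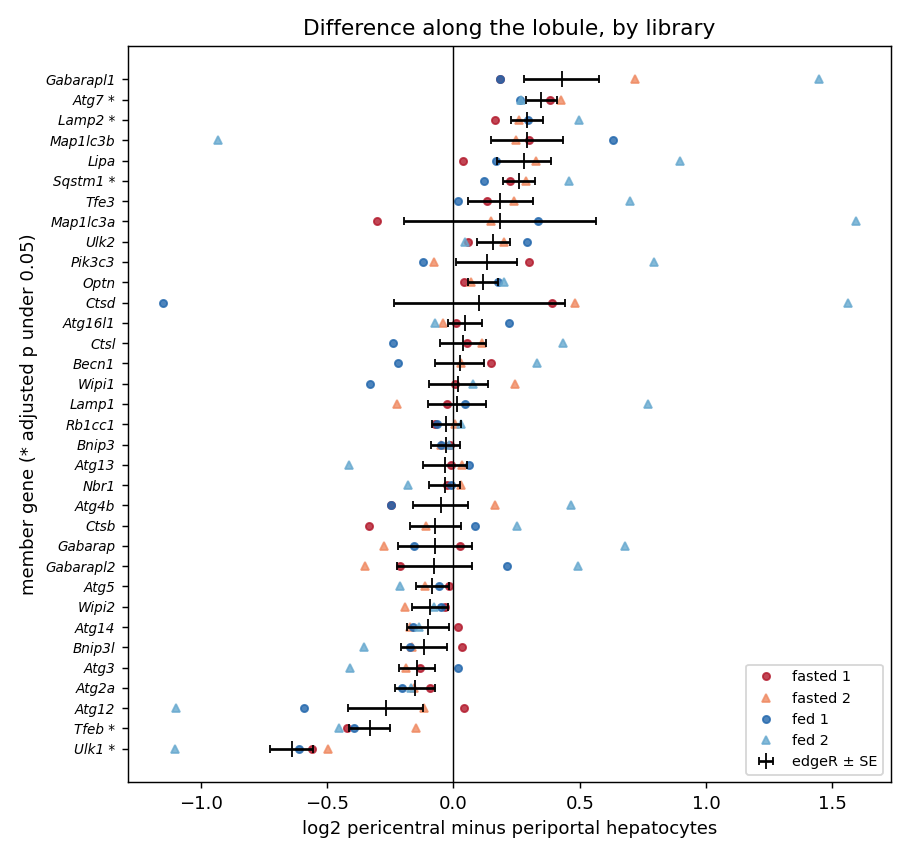
Log2 difference, pericentral minus periportal hepatocytes, for all 34 members, sorted; points are single libraries, as log2 of CPM plus 1, and black bars the edgeR estimate with its standard error. The 5 starred members passed, and their 4 points lie on 1 side of 0.

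Pericentral bins were deeper, with medians of 2408 to 3735 UMIs per nucleus against 2211.5 to 3049 in periportal bins. T or NK cell markers also differed, with sums of 55.4, 32.1, 10.7 and 18.2 CPM in pericentral and 6.63, 8.15, 8.95 and 7.04 CPM in periportal bins, and 2 of 4 tested passed. Endothelial markers summed to 41.4, 8.44, 24.8 and 28.2 CPM pericentral and to 18.1, 2.08, 13.7 and 19.7 CPM periportal, and 2 of 5 tested passed. Kupffer cell or macrophage marker sums went the other way in 4 of 4 libraries, with 156, 259, 167 and 136 CPM pericentral and 187, 314, 184 and 202 CPM periportal. Single Kupffer markers were mixed: of 5 tested, 1 passed as higher pericentral and 1 as higher periportal. Cholangiocyte marker sums were also lower pericentral, with 121, 84.3, 95.3 and 126 CPM against 133, 93.6, 136 and 155 CPM periportal. Of 3 tested cholangiocyte markers, 1 passed, as higher periportal. The 8 hepatocyte markers were each higher periportal. The part of these in the zone differences was not tested.

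Of the other lists, 3 other autophagy genes were higher pericentral, Stbd1 (0.68), Zkscan3 (0.22) and Vps41 (0.20), and 4 higher periportal, led by Atg4a (-0.90), Mitf (-0.30) and Wdr45b (-0.30), of 49 tested. Of 43 lysosomal genes tested, 4 were higher pericentral, among them Manba (0.69), Hexa (1.09) and Npc1 (0.38). Another 4 were higher periportal, among them the protease Ctsc at -2.28 (SE 0.18; edgeR adjusted p = 1.10e-05), Gm2a (-0.88) and Arsa (-0.48). Over all genes, 8.09% were higher pericentral and 8.16% higher periportal, so the shares called in both lists were close to those of all genes. The V-ATPase subunit Atp6v1h (0.34) and Fnip1 (0.23) were higher pericentral, and Prkag2 (-0.27), an AMPK subunit, and Fnip2 (-0.20) periportal. Atg4a was at 26.1, 44.0, 27.3 and 88.0 CPM periportal and 16.6, 15.1, 17.4 and 56.5 CPM pericentral.

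Across cell types, the proteases Ctsb and Ctsd stood at higher levels in Kupffer cells than in hepatocytes, and 4 of the 5 cargo receptors stood at lower mean levels in each other type. In B or plasma cells, each of these 4 was above hepatocytes in 1 of 4 libraries. There the ratio of means for Bnip3 was 0.94, and 1.03 without that type's nuclei above 5000 UMIs. These levels are a description without a test, since the clusters were made from all genes. Ctsb was at 410, 336, 559 and 130 CPM in Kupffer cells, against 37.9 to 47.6 CPM in hepatocytes, a ratio of means of 8.32 (SD of the library ratios 4.01, n = 4). The lowest value, in fed 2, came from 14 UMIs, and it too was above every hepatocyte value. Ctsd was at 42.5, 9.98, 45.9 and 37.2 CPM, from 39, 7, 30 and 4 UMIs, or 6.62 times the hepatocyte mean (SD 4.69). Tfe3 was at 33.8, 51.3, 44.4 and 37.2 CPM, or 2.45 times (SD 0.70), with 4 UMIs in fed 2. All 3 were above hepatocytes in 4 of 4 libraries.

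In endothelial cells the member with the highest ratio was Ctsd, at 32.0, 14.4, 10.5 and 0 CPM, or 2.77 times the hepatocyte mean. The 0 of 154021 UMIs in fed 2 allows a level of up to 19.5 CPM by counting error. Ctsb was next, at 91.9, 84.2, 110 and 51.9 CPM, or 1.96 times, above hepatocytes in 4 of 4 libraries.

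In stellate cells it was Wipi1, at 42.6, 111, 40.1 and 61.7 CPM, or 2.16 times, above hepatocytes in 4 of 4 libraries. In B or plasma cells it was Lamp1, at 48.7, 76.9, 113 and 62.6 CPM, or 2.03 times, also in 4 of 4, with 2 UMIs in fed 2. In cholangiocytes it was Gabarapl2, at 41.0, 25.2, 5.06 and 46.5 CPM, or 1.75 times, where fed 1 and fed 2 had 1 UMI each.

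Optn was below hepatocytes in 4 of 4 libraries in Kupffer, endothelial, stellate and cholangiocyte sums and in 3 of 4 in B or plasma cells. In stellate cells it was at 253, 147, 154 and 134 CPM, or 0.47 times the hepatocyte mean, and in endothelial cells at 177, 281, 175 and 208 CPM, or 0.57 times. Nbr1 and Atg16l1 likewise lay below hepatocytes in 4 of 4 libraries in those 4 types.

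Ulk1 was at 37.0, 47.8, 51.3 and 77.9 CPM in endothelial cells, or 0.55 times, and at 44.2, 59.3, 50.8 and 51.4 CPM in stellate cells, or 0.53 times, below hepatocytes in each library. Tfeb was 1.62 times the hepatocyte mean in Kupffer cells and 0.54 times in stellate cells, with all 4 libraries on the same side in each. The median ratio over the 34 members was 1.05 in Kupffer, 0.95 in endothelial, 0.94 in stellate, 0.98 in B or plasma cells and 0.85 in cholangiocytes.

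**Figure D5:**
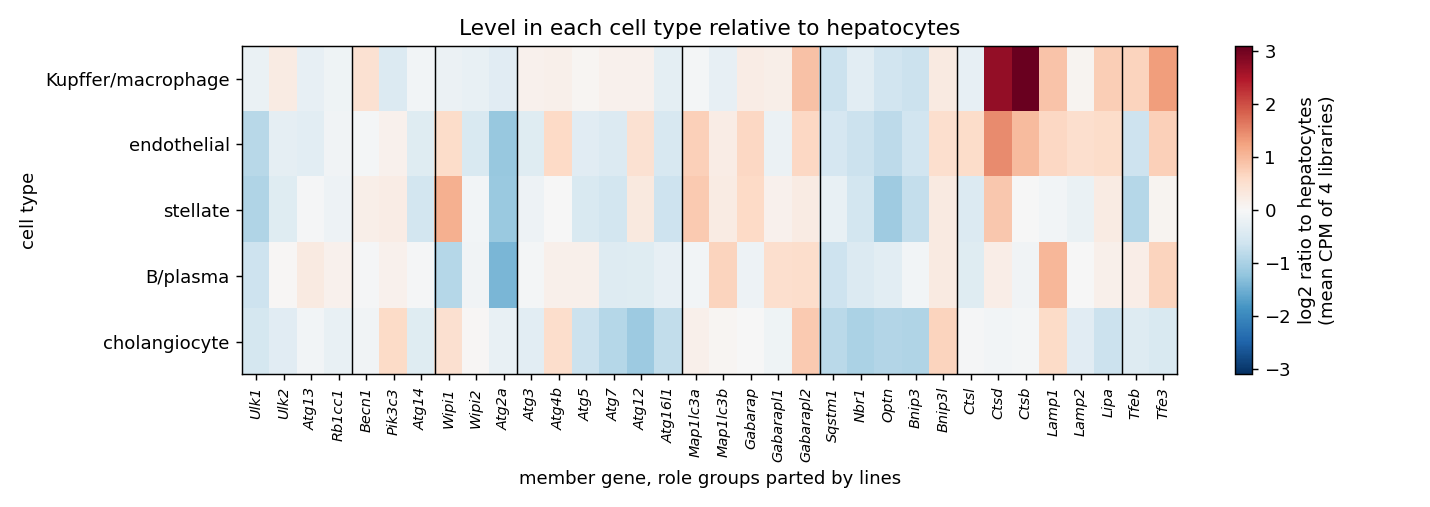
Mean CPM of each member over 4 libraries in 5 cell types relative to hepatocytes, as a log2 ratio (red higher, blue lower), with role groups parted by lines. Ctsb and Ctsd stand out in Kupffer cells at 8.32 and 6.62 times, and 4 of the 5 cargo receptors, all but Bnip3l, are below hepatocytes in every type. Bnip3 in B or plasma cells is close to hepatocytes, at 0.94 times.

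Hepatocyte markers made up 0.779% to 1.31% of Kupffer UMIs and 0.675% to 1.06% of endothelial UMIs, against 0.878% to 1.98% in hepatocytes. None of the 8 was at 0. By library, they made up 1.978%, 1.447%, 1.7% and 0.878% of UMIs in hepatocytes. In Kupffer cells they made up 1.306%, 1.12%, 0.894% and 0.779%, and in endothelial cells 1.062%, 0.746%, 0.795% and 0.675%. The shares in B or plasma cells were 1.553%, 1.308%, 1.306% and 0.782%. In cholangiocytes the markers made up 1.495%, 0.5965%, 0.711% and 0.470%, and in stellate cells 1.443%, 0.438%, 0.645% and 0.493%. The share was highest in fasted 1 in every type. The part of such RNA in the levels and in the fasted to fed differences was not tested. Nuclei above 5000 UMIs held up to 52.3% of a library's UMIs in stellate cells (fasted 1), 48.8% in B or plasma cells (fasted 2), 45.8% in cholangiocytes (fasted 1), 30.9% in Kupffer cells (fasted 2) and 9.44% in endothelial cells (fasted 2). In fed libraries they held at most 11.6% in these types. Without them in these types, but with all hepatocyte nuclei kept, the ratio was 9.19 for Ctsb in Kupffer cells and 2.31 for Wipi1 in stellate cells. It was 2.00 for Lamp1 in B or plasma cells and 1.99 for Gabarapl2 in cholangiocytes. In hepatocytes, nuclei above 5000 UMIs held 44%, 50.2%, 36.3% and 14.45% of UMIs.

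Feeding did not separate any member past the threshold in the other cell types. The tests covered 33 members in Kupffer cells (0% of all genes called), 33 in endothelial cells (0.0502%), 32 in stellate cells (0.0410%), 19 in cholangiocytes (0.100%) and 15 in B or plasma cells (0%), and none was called by edgeR or DESeq2. An unadjusted p under 0.05 was reached in edgeR by 2 members in endothelial cells (3.53% of all genes), 1 in cholangiocytes (4.99%) and 0 in Kupffer (2.99%), stellate (3.29%) and B or plasma cells (3.44%). Fold changes were above 0 for 25, 22, 28, 13 and 11 of the tested members in that order, with medians of 0.11, 0.15, 0.34, 0.43 and 0.24, against 0.02, 0.02, 0.05, 0.02 and 0.00 over all genes. A member had to have enough counts to be tested, so these counts are not over all 34. The members were also chosen with earlier results of these data known.

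Ctsl in endothelial cells was at 148 and 87.1 CPM when fasted and 44.1 and 32.5 CPM when fed libraries. Both fasted values were above both fed values, as in hepatocytes, with a log2 fold change of 1.52 (SE 0.46; edgeR adjusted p = 0.872). The fed 2 value rested on few of that library's 154021 endothelial UMIs. In stellate cells Ctsl was at 73.9 and 40.3 CPM compared with 32.3 and 10.3 CPM, or 1.24 (SE 0.62), with 1 UMI in fed 2, and 1.34 without nuclei above 5000 UMIs. In Kupffer cells Ctsl was at 70.9 and 37.1 CPM compared with 39.8 and 27.9 CPM, the last from 3 UMIs. Its groups overlapped there (0.61 on the log2 scale).

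Map1lc3b was at 42.5 and 40.2 CPM compared with 13.8 and 26.0 CPM in endothelial cells, or 1.31 (SE 0.58; edgeR adjusted p = 1.00), and at 28.6 and 59.3 CPM compared with 16.9 and 20.6 CPM in stellate cells, or 1.32 (SE 0.70), without overlap in either. The fed 2 values came from 4 UMIs in endothelial and 2 in stellate cells. In B or plasma cells, where Map1lc3b had too few counts for the test, the fed values were higher, at 24.4 and 40.7 CPM when fasted and 41.0 and 62.6 CPM when fed, the last from 2 UMIs. The third with an unadjusted p under 0.05 was Sqstm1 in cholangiocytes, at 84.4 and 170 CPM compared with 40.4 and 46.5 CPM, or 1.60 (SE 0.75; edgeR adjusted p = 0.934). Its fed 2 value was 1 UMI.

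A test of whether the feeding difference depended on cell type, each type against hepatocytes in the same libraries, called none of the 34 members in Kupffer (0.305% of all genes), endothelial (0.438%), stellate (0.194%), B or plasma cells (0.0243%) or cholangiocytes (0.00789%). The unadjusted p was under 0.05 for 2, 0, 0, 1 and 2 members, against 4.60%, 5.28%, 3.56%, 2.09% and 3.64% of all genes. For Ctsl the endothelial difference exceeded that of hepatocytes by 0.41 (SE 0.34) and for Map1lc3b by 0.46 (SE 0.47). Without fed 1, Ctsb in Kupffer cells passed this test, at 1.91 (edgeR adjusted p = 5.17e-04), where fed 2 alone, with 14 UMIs, stood for the fed group.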

How the data were processed

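RNA of single liver nuclei was measured in 2 fasted and 2 fed libraries. Per the submitters' processing notes the authors used Cell Ranger 6.0 and mm10, and the deposited matrices hold raw counts of UMIs. The sources used here do not say whether intronic reads were counted. Between 13.2% and 17.0% of stored entries were 0, which a plain matrix does not store. Total UMIs ranged from 8078755 to 30955600 per library. Pairs of libraries shared 12 to 42 barcodes.

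Kept nuclei had 500 or more genes and no more than 5% of UMIs from mitochondrial genes, and the highest Scrublet doublet scores were removed, 0.8% per 1000 barcodes (233 to 1108 nuclei), because the automatic thresholds marked 2011, 0, 1 and 1. Clusters (scanpy 1.11.5, leidenalg 0.10.2, Python 3.11.15, 2000 variable genes, 30 components, 15 neighbours, resolution 1) were named from marker lists. Hepatocytes were scored for zone on counts thinned to 1500 UMIs, shallower nuclei left out, which left 4805, 4220, 4338 and 1542, and landmarks had to be seen in 2% of hepatocytes in each library. Counts were summed per library and type with at least 20 nuclei in every library, or per bin, and tested with edgeR 4.0.16 (quasi-likelihood F test, robust, TMM, filterByExpr, R 4.3.3) over all genes. Standard errors are log2 fold changes divided by the square root of F. DESeq2 1.42.0 was an alternative. Scripts were tested on simulated counts.

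The members and lists were chosen with earlier results of these data known. Values in every library are given for members that passed any test, for members whose hepatocyte groups did not overlap with a difference of at least 0.5 (log2), for the largest difference in each role group, for the highest ratio in each cell type and for the 3 largest zone differences in each direction. Of the other lists, up to 3 genes per direction are named, those called first and then by p. Of these, 1 is not reported here. Alternatives were other scaling, filters, doublet and gene thresholds, thinning, stored zeros counted as 1, a replicate block and each library left out. Others were chosen after seeing the data. They left out deep nuclei of types other than hepatocytes, acute-phase and interferon clusters, or Gm42418, Lars2 and mitochondrial genes. T or NK, mesothelial and dendritic nuclei were too few to compare. CPM of a 0 is limited by 3 counts of the total, which covers counting error only.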

Additional observations from a re-analysis of the deposited data

How the results depend on the processing

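None of the 34 members was called between fasted and fed hepatocytes under any of the 14 alternatives, and 18 kept their direction in all of them. The number of all genes called there, 1, was 0 with RLE scaling, 276 without the low-count filter, 0 with stored zeros counted as 1, 168 in DESeq2 and, without each library in turn, 4 to 644. The replicate numbers carry no stated batch. The replicate 1 minus replicate 2 differences of fasted and fed hepatocytes correlated across 13994 genes at 0.55, and with a replicate block 179 genes were called and no member, where the edgeR adjusted p of Ctsl was 0.0561. This pairing is a hint from the data and not from the design. In the other cell types the sum of calls, 12, was 101 without the filter, 38 in DESeq2, 110 with the replicate block, 19 without nuclei above 5000 UMIs and 40 to 205 without each library. By zone, the 1995 calls became 1096 and the 5 members 3 in the fed libraries alone. Zone by feeding, the 29 calls became 100 without the filter, 67 with 2 bins in place of 3 and 8 to 179 without each library. Type by feeding, the 128 calls became 197 with stored zeros as 1, 239 without nuclei above 5000 UMIs and 20 to 492 without each library, with 0 to 1 members. The cause of these shifts was not tested.

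Directions of 16 members in hepatocytes reversed under at least 1 alternative, 15 with log2 fold changes between -0.25 (Wipi1) and 0.16 (Tfeb), and Sqstm1 with 0.64. Without each library in turn, the log2 fold change ran for Ulk2 from -0.42 to 0.092, Rb1cc1 from -0.39 to 0.24, Atg14 from -0.18 to 0.14, Wipi1 from -0.96 to 0.37, Wipi2 from -0.34 to 0.55, Atg2a from -0.075 to 0.30, Atg3 from -0.064 to 0.36, Atg4b from -0.33 to 0.17 and Atg5 from -0.11 to 0.40. It ran for Gabarap from -0.53 to 0.77, Gabarapl2 from -0.19 to 0.38, Sqstm1 from -0.27 to 1.18, Bnip3 from -0.18 to 0.58, Lipa from -0.18 to 0.47, Tfeb from -0.61 to 0.88 and Tfe3 from -0.37 to 0.55. Without the filter Atg14 was 0.017 and Gabarap 0.0082, and Gabarap was 0.080 with the replicate block. With nuclei thinned to 1500 UMIs Gabarap was 0.11 and Lipa -0.0071. Without acute-phase and interferon clusters Gabarap was 0.024, Bnip3 -0.0012 and Tfe3 -0.041. Tfe3 was -0.017 with RLE scaling, -0.0079 with stored zeros as 1, -0.0088 with 1000 genes per nucleus and -0.0053 without Gm42418, Lars2 and mitochondrial genes. Zone by feeding, Sqstm1 was 0.030 with stored zeros as 1 and -0.19 to 0.10 without each library, and Tfeb -0.0014 to 0.25. Gabarapl1 by feeding in Kupffer cells was -1.01 to 0.16. Depth limits precision in fed 2, with 107519 Kupffer UMIs against 653366 to 916818 in the other libraries.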
